A study of Mus musculus with 8 samples.

Results

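The 10 genes described here encode cell surface receptors for WNT proteins, namely the frizzled receptors Fzd1, Fzd2, Fzd4, Fzd5, Fzd6, Fzd7, Fzd8 and Fzd9 and the co-receptors Lrp5 and Lrp6. They were taken by gene symbol from a table of 55114 genes, in which all 10 were found once. The table covers intestinal crypts of 8 C57BL/6 mice, 8 weeks old, measured by RNA sequencing. The 4 KO mice lacked Mex3a in every tissue, since the deletion is constitutive and removes exon 1 and part of exon 2, and the 4 WT mice were littermate controls, labelled Ctrl. Crypts were shaken off the intestine in EDTA and passed through a strainer, without sorting of cell types, so fewer cells of a type and less RNA per cell cannot be told apart in these values. Nothing in the sources ties the deletion to a particular cell type, and the segment of intestine sampled is not given in the labels.

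A frizzled receptor spans the membrane several times and binds a WNT ligand through its cysteine-rich outer domain. LRP5 and LRP6 cross the membrane once, join the same ligand, and recruit AXIN to the membrane, which spares β-catenin from destruction. In the crypt this signal maintains the intestinal stem cells, and Paneth cells, the antimicrobial cells of the crypt base, are themselves known to depend on it. MEX3A is an RNA-binding protein of the crypt base that recognizes a short element in 3′UTRs, and the comparison of KO with WT crypts asks which receptors crypts expressed and which of them differed without MEX3A.

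The reads counted on genes ranged from 20324184 to 24726221 in WT and from 23489180 to 30654105 in KO mice. Mex3a had 236 to 328 counts in WT and 6 to 28 in KO mice, with a log2 fold change of -4.43 (edgeR adjusted p = 0.0310), in the direction of the labels. All 8 epithelial markers were well detected, with Krt8 at a mean of 1742 FPKM (fragments scaled to gene length and library size). They summed to 9058 to 9578 CPM (counts scaled to library size after TMM normalization) in WT and 10201 to 11699 CPM in KO mice, without overlap (two-sided exact permutation test, p = 0.0286), and 8 of 8 had log2 fold changes above 0, 3 of them, Krt8, Krt19 and Vil1, with an edgeR unadjusted p under 0.05. Of all 16109 tested genes, 46.1% had log2 fold changes above 0 and 5.33% were higher in KO at that threshold. By contrast, the fibroblast and muscle, endothelial, and neural and glial lists peaked at 1.96 (Vim), 1.52 (Lyve1) and 0.219 FPKM (Tubb3). Immune markers were present, up to a mean of 10.2 FPKM (Cd68), and the 12 of them summed to 35.0 to 48.3 CPM in WT and 46.7 to 91.2 CPM in KO mice (exact permutation p = 0.0571). Of the 11 immune markers tested, 10 had log2 fold changes above 0, with a median of 0.77, and 3, Cd3e, Cd8a and Itgae, were higher at an edgeR unadjusted p under 0.05, against the same 46.1 and 5.33% of all tested genes. The part of the epithelial and immune marker differences in the receptor values was not tested. Replicates 1 and 2 of each genotype expressed the Y-chromosome gene Ddx3y, and replicates 3 and 4 expressed Xist.

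Since KO mice lack a protein that binds RNA, each receptor's longest coding transcript in GENCODE M21 (GRCm38) was scanned beyond its stop codon for the MEX3A recognition element. As DNA, the element is A, G or T, then G or T, then AG, followed by a gap of 0 to 8 bases and by T, any of A, C or T, and TA, read on the transcript's strand only and counted without overlap. All 10 receptors held at least 1 match, where 74.3% of the 12989 tested genes with a 3′UTR did. Those genes had a median of 1110 bases of 3′UTR and of 2 matches, and most of the receptors have longer 3′UTRs. The receptors had 70 matches in 24381 bases of 3′UTR, or 2.87 per kilobase, against 2.39 per kilobase over all tested genes. Fzd5 had 14 matches in 4285 bases, Lrp6 12 in 4310, Fzd4 12 in 4774, Fzd1 10 in 1813, Fzd8 8 in 3159, Fzd2 5 in 1614, Fzd7 4 in 2277 and Fzd6 3 in 1634. Fzd9 had 1 match in 313 bases and Lrp5 1 in 202. A match is a description of letters, and binding was not measured in these samples.

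The matches of Fzd2 and Fzd9 are shown because these receptors had the fold changes farthest from 0, that of Lrp5 because it is the only one of the more abundant co-receptor, and 2 of Fzd5, the most abundant receptor, because they have no gap. Capitals mark the defined parts of the element and lower case marks the gap. The sites lie in the last exon, at chr11:102606594-102606608, chr11:102607139-102607150, chr11:102607721-102607730, chr11:102607834-102607847 and chr11:102607909-102607919 on the plus strand for Fzd2, and on the minus strand at chr5:135248999-135249009 for Fzd9, chr19:3584851-3584864 for Lrp5, and chr1:64733150-64733157 and chr1:64732108-64732115 for Fzd5 (GRCm38).
Fzd2 site 1: TTAGgtcgcttTTTA
Fzd2 site 2: ATAGcgctTTTA
Fzd2 site 3: TGAGtgTTTA
Fzd2 site 4: TGAGagatgtTCTA
Fzd2 site 5: GGAGtacTTTA
Fzd9 site: AGAGttaTTTA
Lrp5 site: GGAGaaaataTTTA
Fzd5 site 1: GGAGTCTA
Fzd5 site 2: GTAGTTTA

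The levels of the 10 receptors differed far more from each other than between genotypes. Fzd5, a receptor long studied in Paneth cell maturation, was the most abundant at 34.5 ± 2.85 FPKM (SD, n = 8 mice), and 1555 of the 55114 genes had a higher mean. Its gene (ENSMUSG00000045005) spans 64730558 to 64737751 on the minus strand of chromosome 1 in GRCm38. Fzd5 measured 35.3, 32.2, 35.1 and 32.4 FPKM in WT replicates 1 to 4, and 30.3, 37.2, 39.1 and 34.7 FPKM in KO replicates 1 to 4. The lowest and the 2 highest of these 8 values were KO mice, and the WT mice lay between them. Exons of the antisense gene Gm38058 cover 1233 bases of its exons, and that gene had 4 to 17 counts per mouse where Fzd5 had 4798 to 7246.

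The co-receptors came next. Lrp5 (ENSMUSG00000024913, chromosome 19, 3584828 to 3686564, minus strand) measured 12.8, 13.7, 16.8 and 15.1 FPKM in WT and 13.05, 14.1, 16.3 and 15.3 FPKM in KO replicates 1 to 4. Lrp6 (ENSMUSG00000030201, chromosome 6, 134446476 to 134566965, minus strand) measured 11.7, 8.10, 9.24 and 7.90 FPKM in WT and 8.54, 9.59, 8.96 and 9.32 FPKM in KO replicates 1 to 4. WT replicate 1 had the highest Lrp6 and the lowest Lrp5 of all 8 mice, and the other 7 had 7.90 to 9.59 FPKM of Lrp6. Fzd7 (ENSMUSG00000041075, chromosome 1, 59482424 to 59486955, plus strand), a receptor of Lgr5+ stem cells, followed at 7.45 ± 0.862 FPKM (SD, n = 8). It measured 6.53, 7.73, 8.82 and 7.05 FPKM in WT and 7.58, 6.10, 7.80 and 7.97 FPKM in KO replicates 1 to 4, and the genotypes overlapped.

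**Figure D1:**
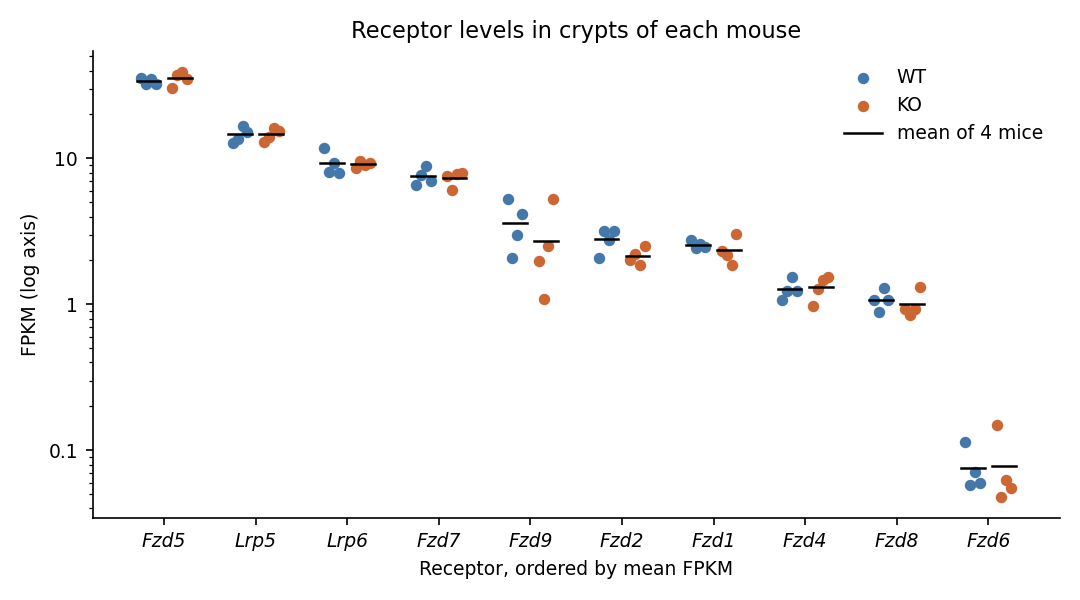
FPKM of each receptor on a log axis, with 1 point per mouse (4 WT, 4 KO) and a bar at the mean of each genotype. Fzd5 lies between 30.3 and 39.1 FPKM in every mouse, Fzd6 between 0.0482 and 0.148, and the genotypes overlap for each receptor.

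The other frizzled receptors were lower. Fzd9 (ENSMUSG00000049551, chromosome 5, 135248938 to 135251230, minus strand) averaged 3.17 FPKM over the 8 mice, Fzd2 (ENSMUSG00000050288, chromosome 11, 102604396 to 102608058, plus strand) 2.48 and Fzd1 (ENSMUSG00000044674, chromosome 5, 4753839 to 4758035, minus strand) 2.46. Fzd4 (ENSMUSG00000049791, chromosome 7, 89404355 to 89413134, plus strand), which also binds the non-WNT ligand norrin, averaged 1.29 FPKM and ranged from 0.969 to 1.53. Fzd8 (ENSMUSG00000036904, chromosome 18) averaged 1.04 FPKM and ranged from 0.849 to 1.31. These values are low but rest on 64 or more counts in every mouse.

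Fzd6 (ENSMUSG00000022297, chromosome 15, 39006034 to 39038188, plus strand), a receptor known for planar cell polarity, was barely detected. It had 12, 6, 7 and 7 counts in WT and 17, 6, 7 and 8 counts in KO replicates 1 to 4, with a mean of 0.0770 FPKM, and it failed the filter on low counts, so 9 of the 10 receptors were tested. Of the frizzled genes outside the 10, Fzd3 averaged 0.0987 FPKM but passed the filter, and Fzd10 averaged 0.0300 FPKM and did not.

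The order of the receptors was tested within mice, by a two-sided exact sign-flip test of the log2 difference in FPKM (pseudocount 0.01) between neighbours, adjusted over the 9 pairs. In 6 pairs the first receptor was higher in 8 of 8 mice, namely Fzd5 over Lrp5 (2.36-fold), Lrp5 over Lrp6 (1.60-fold), Lrp6 over Fzd7 (1.23-fold), Fzd7 over Fzd9 (2.35-fold), Fzd1 over Fzd4 (1.90-fold) and Fzd8 over Fzd6 (13.5-fold), each with an exact p of 0.00781, the smallest that 8 mice allow (adjusted p = 0.0117). Fzd4 exceeded Fzd8 1.24-fold in 7 of 8 mice (exact p = 0.0156, adjusted p = 0.0201). Fzd9 and Fzd2 did not differ beyond their spread (Fzd9 higher in 5 of 8 mice, exact p = 0.492, adjusted p = 0.554), nor did Fzd2 and Fzd1 (Fzd2 higher in 5 of 8 mice, exact p = 0.984, adjusted p = 0.984). Ranked in WT and KO mice apart, the order was the same but for Fzd1 and Fzd2, which changed places in KO.

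The level of the co-receptors depends on the gene length used. The deposited FPKM divide Lrp5 by 9738 bases, the sum of exons of all its transcripts, whereas its longest coding transcript has 5161 bases. Divided by that transcript (chosen after seeing the data), Lrp5 stood 1.89-fold higher at 27.6 and Lrp6 1.46-fold higher at 13.4, while 7 of the frizzled receptors kept their length and Fzd6 stayed lowest. The order of the 10 then stayed the same, but Fzd5 exceeded Lrp5 by 1.25-fold in place of 2.36-fold.

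No difference between genotypes in the size or make-up of the frizzled pool passed the test, and the spread between mice was wide for several shares. The 8 frizzled receptors summed to 52.7 ± 2.42 FPKM in WT and 52.3 ± 4.70 in KO mice (SD, n = 4 each; two-sided exact permutation test, p = 0.943), and Lrp5 with Lrp6 to 23.8 ± 1.83 and 23.8 ± 1.60 (exact permutation p = 0.971). Fzd5 made up 65.2, 64.6, 63.6 and 62.8% of the frizzled sum in WT replicates 1 to 4, against 65.5, 73.0, 70.3 and 61.6% in KO replicates 1 to 4. Its share was above every WT mouse in 3 KO mice and below every WT mouse in KO replicate 4 (exact permutation p = 0.286). Fzd7 held 11.97 to 16.4% over the 8 mice. Fzd9 held 6.85 ± 2.50% in WT and 5.07 ± 3.03% in KO, and Fzd2 5.35 ± 1.19 and 4.14 ± 0.534% (SD, n = 4 each; exact permutation p = 0.4 and 0.171). Lrp5 made up 61.3 ± 6.17% of the co-receptor sum in WT and 61.7 ± 2.16% in KO (SD, n = 4 each; exact permutation p = 0.971). Over the 10 shares compared, chosen after seeing the data, each adjusted p was 1.

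**Figure D2:**
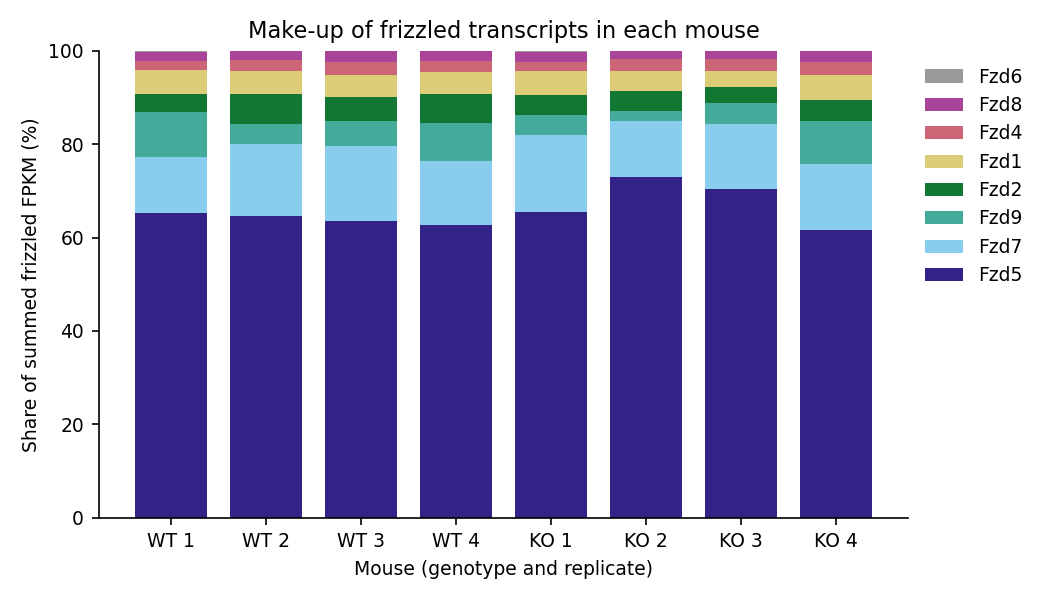
Share of each frizzled receptor in the summed FPKM of the 8 frizzled receptors, in percent, as 1 stacked bar per mouse. Fzd5 takes 61.6 to 73.0% of each bar and Fzd7 11.97 to 16.4%, and Fzd6 is too small to be seen in most bars.

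No receptor passed the threshold between KO and WT crypts. With edgeR's quasi-likelihood test 0 of the 9 receptors tested had an adjusted p under 0.05, where 1 of 16109 genes, or 0.00621%, did. At an unadjusted p under 0.05 the count was again 0 of 9, against 8.38% of all tested genes, and DESeq2 gave 1 of 9, Fzd2, against 9.09%. The KO and WT mice overlapped in CPM for all 10 receptors, where they did not overlap for 4.04% of tested genes. Of the 9 log2 fold changes, 3 were above 0 and 6 below, with a median of -0.041, against -0.016 over all tested genes. By exact permutation of CPM over the mice, the 10 two-sided p-values lay between 0.0857 and 0.943, and 4 mice against 4 cannot go below 0.0286.

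The abundant receptors had the narrowest intervals. Fzd5 went from 235 ± 11.9 to 245 ± 26.8 CPM (SD, n = 4 each), a fold of 1.04 with a 95% interval from 0.904 to 1.199 (edgeR adjusted p = 0.912). Lrp5 went from 143 ± 16.5 to 143 ± 13.97 CPM, a fold of 1.002 with an interval from 0.854 to 1.18 (edgeR adjusted p = 0.996). Lrp6 had a fold of 0.979 (0.807 to 1.19) and Fzd7 of 0.972 (0.808 to 1.17). Fzd1 had a fold of 0.914 (0.714 to 1.17), Fzd4 of 1.03 (0.778 to 1.36) and Fzd8 of 0.928 (0.692 to 1.24).

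**Figure D3:**
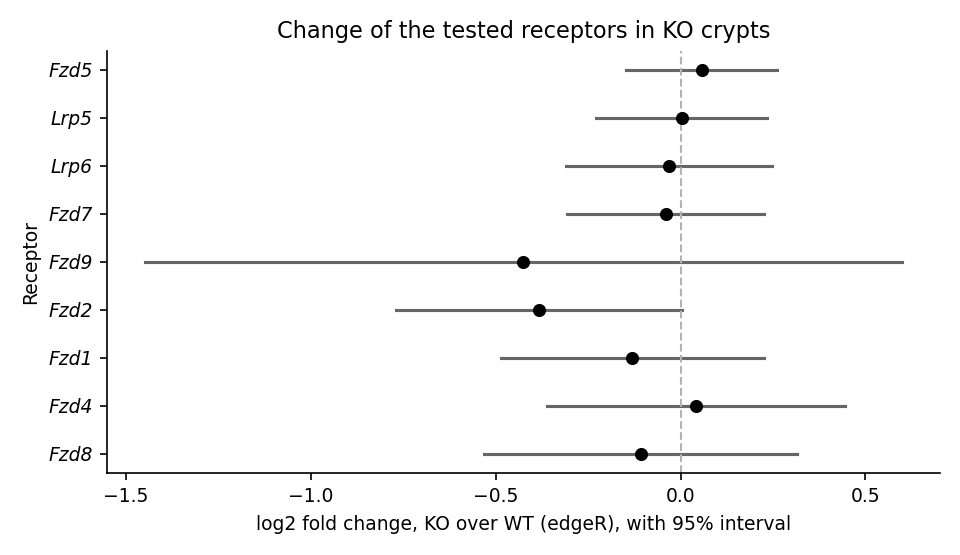
Log2 fold change of KO over WT for the 9 tested receptors (points) with the 95% interval of the edgeR fit (lines), ordered by mean FPKM. Each interval includes 0, with that of Fzd2 ending just past it, and Fzd9 has the widest, from -1.45 to 0.60.

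Fzd2, a receptor of both canonical and non-canonical WNT signals, was the receptor closest to the threshold. It measured 7.66, 11.8, 10.1 and 11.7 CPM in WT and 7.38, 8.18, 6.83 and 9.26 CPM in KO replicates 1 to 4. WT replicate 1 lay among the KO mice and the other WT mice lay above all of them, and each KO mouse was below the WT mouse of its number. The log2 fold change was -0.38 (SE 0.17, edgeR unadjusted p = 0.0521, adjusted p = 0.596), and the exact permutation test gave p = 0.0857, or 0.857 adjusted over the 10 receptors. With the replicate number as a block, which is treated here as pairing the mice, it was -0.37 (edgeR unadjusted p = 0.0334, adjusted p = 0.398), and 11.3% of tested genes reached that unadjusted threshold. Without WT replicate 1 the log2 fold change was -0.50 (edgeR unadjusted p = 0.00974, adjusted p = 0.707). The exact permutation p was then 0.0286, the smallest that 3 against 4 mice allow, since no other WT mouse overlapped the KO mice. Without WT replicate 4 the log2 fold change was -0.32 (edgeR unadjusted p = 0.131). The adjusted p stayed between 0.398 and 0.972 over the 17 alternatives.

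Fzd9 varied the most among the receptors that were tested, with a coefficient of variation of 49.5% over the 8 mice, where the others ranged from 8.28 (Fzd5) to 21.2% (Fzd2). It measured 12.2, 4.81, 6.88 and 9.59 CPM in WT and 4.57, 2.48, 5.79 and 12.1 CPM in KO replicates 1 to 4. The highest values, in WT replicate 1 and KO replicate 4, belong to different genotypes. The log2 fold change was -0.42 (SE 0.46, edgeR adjusted p = 0.845), -0.97 without KO replicate 4 (edgeR unadjusted p = 0.0330, adjusted p = 0.788), -0.16 without KO replicate 2 and -0.19 without WT replicate 1. In the mice with Ddx3y its mean was 8.52 CPM in WT and 3.52 in KO, and in the mice with Xist 8.24 and 8.92 (n = 2 each). The difference between these 2 contrasts was not past the threshold (edgeR interaction term, log2 -1.39, SE 0.75, adjusted p = 0.974), and no other receptor had an adjusted p under 0.05 for that term.

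Fzd9 was compared with the Paneth cell markers mouse by mouse, a pair of measures chosen because their values were seen to move together, so no test is given. The 9 markers, among them Lyz1 (lysozyme), Mmp7 and 3 alpha-defensins, were all detected, and summed to 51946, 15712, 19411 and 28542 CPM in WT and to 14738, 8042, 19696 and 26659 CPM in KO replicates 1 to 4. The mice with the most Fzd9 were those with the highest sums, and KO replicate 2 was lowest in both. With the genotype means subtracted, log2 CPM of Fzd9 and of the sum had a Pearson's r of 0.937 and a Spearman's rho of 0.929 over 8 mice, and r was 0.942 without the 2 mice farthest from the median sum. The groups with Ddx3y and with Xist hold 4 mice each, under the 6 taken as the fewest for a correlation, so none was computed within them. The part of the Paneth cell markers in the Fzd9 values was not tested. All 9 markers had log2 fold changes below 0, with a median of -0.64 and 0 of 9 at an unadjusted p under 0.05 in edgeR. Of all tested genes, 53.9% were below 0 and 3.05% were lower at that threshold.

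**Figure D4:**
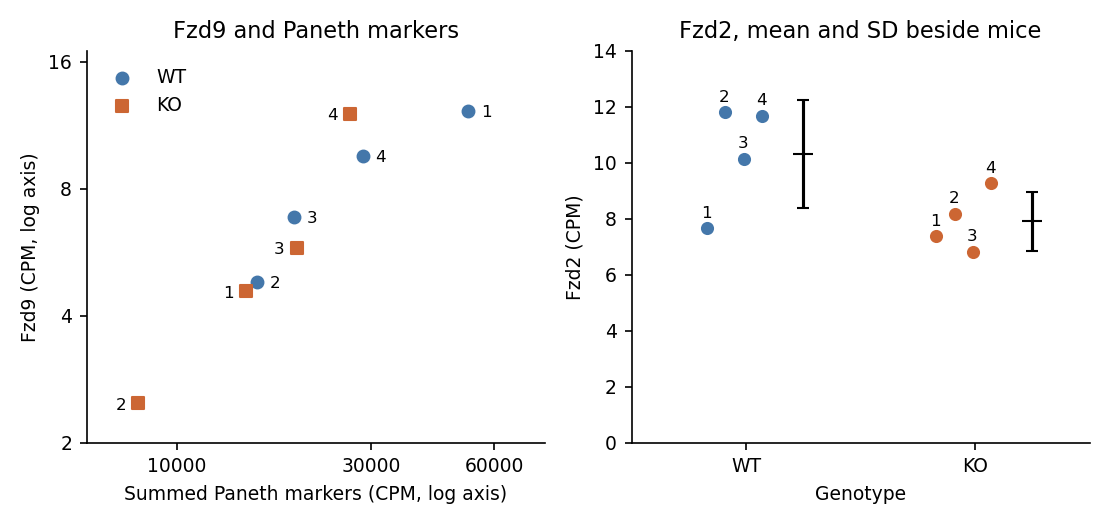
Left, Fzd9 against the summed Paneth cell markers, both in CPM on log axes; right, Fzd2 in CPM with the mean and SD of each genotype beside the mice. Points are single mice with their replicate number, and KO replicate 2 is lowest for Fzd9 (2.48 CPM) and for the marker sum (8042 CPM), while WT replicate 1 lies among the KO mice for Fzd2 (7.66 CPM).

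For each tested receptor the genes with the most alike profile were listed by Pearson's r of log2 CPM over the 8 mice, genotype means subtracted, among 12272 genes with a mean of at least 1 FPKM. These are descriptions, since so many genes and 8 mice give high values in any case. Fzd9 was most like Smad3 (r = 0.992), Pnliprp1 (0.979) and Defa-ps7 (0.979), the last a defensin pseudogene whose reads may be shared with its near-identical relatives. Lrp6 was most like Itsn2 (0.999), Abl2 (0.980) and Hs6st1 (0.970), and Lrp5 like Bcl11a (0.980), Plxnb2 (0.980) and Grb2 (0.979). Fzd5 was closest to Sptan1 (0.976), Itga3 (0.976) and Cmtm6 (0.969), and Fzd7 to Gdpd5 (0.970), Cd3eap (0.970) and Ubtf (0.960). Fzd4 was closest to Elf4 (0.984), Myo1c (0.9755) and Sept9 (0.9749), Fzd8 to Pgghg (0.970), Gm45674 (0.969) and Rasl11b (0.969), and Fzd1 to Plekhg3 (0.930), S100g (0.925) and Timm23 (0.921). Fzd2 was closest to a gene without a symbol in the table (0.965), Ccnyl1 (0.960) and Gm10384 (0.942). Between the receptors themselves the values ran from 0.896 for Fzd4 with Lrp5 to -0.715 for Fzd2 with Lrp6. In the last pair, WT replicate 1 had the lowest Fzd2 of the WT mice (7.66 CPM) and the highest Lrp6 of all mice (162 CPM).

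The genes around the receptors were described by lists of 91 genes, of which 55 passed the filter on low counts. At an unadjusted p under 0.05 in edgeR, 9 of the 55 differed, 2 higher (both relatives of Lrp5 and Lrp6) and 7 lower in KO, where 5.33 and 3.05% of all tested genes were higher and lower. None had an adjusted p under 0.05, and the adjusted p of the 9 lay between 0.518 and 0.592. Their count was 4 with WT replicate 4 or KO replicate 2 left out, and 5 when WT replicate 1 was, when WT replicate 3 was or when KO replicate 3 was. The median log2 fold change of the 55 was -0.059, against -0.016 over all tested genes.

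Among the pathway lists, receptor turnover had the most tested genes past the unadjusted threshold, 3 of 4. RNF43 and ZNRF3 are ubiquitin ligases that remove frizzled receptors and LRP6 from the cell surface, and LGR4 and LGR5, together with R-spondins, hold them back. Znrf3 measured 39.7, 31.1, 34.6 and 34.5 CPM in WT and 27.9, 26.3, 26.7 and 32.2 CPM in KO replicates 1 to 4, with KO replicate 4 alone among the WT values (log2 fold change -0.31, SE 0.10, edgeR unadjusted p = 0.0145). The log2 fold change was -0.28 for Rnf43, -0.50 for Lgr5 and -0.20 for Lgr4, the last with an edgeR unadjusted p of 0.122. Lgr6 and the R-spondins Rspo1, Rspo2, Rspo3 and Rspo4 were each below 1 FPKM on average. Lgr5 and Rnf43 also stand among the 8 stem cell markers, all of which had log2 fold changes below 0, 4 with an edgeR unadjusted p under 0.05, where 53.9% of all tested genes were below 0 and 3.05% lower at that threshold. The sum of those markers was 4514 to 5227 CPM in WT and 3379 to 4179 CPM in KO mice, without overlap (exact permutation p = 0.0286). Olfm4 alone made up 77.4 to 85.6% of that sum, and the other 7 markers summed to 755 to 947 CPM in WT and 623 to 817 CPM in KO mice, with overlap (exact permutation p = 0.0857, computed after seeing the data). Paired by replicate number, the sum of these 7 was lower in KO in 4 of 4 pairs, by 114 to 150 CPM (exact sign-flip p = 0.125, the smallest that 4 pairs allow). The part of the stem cell markers in the receptor turnover values was not tested.

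**Figure D5:**
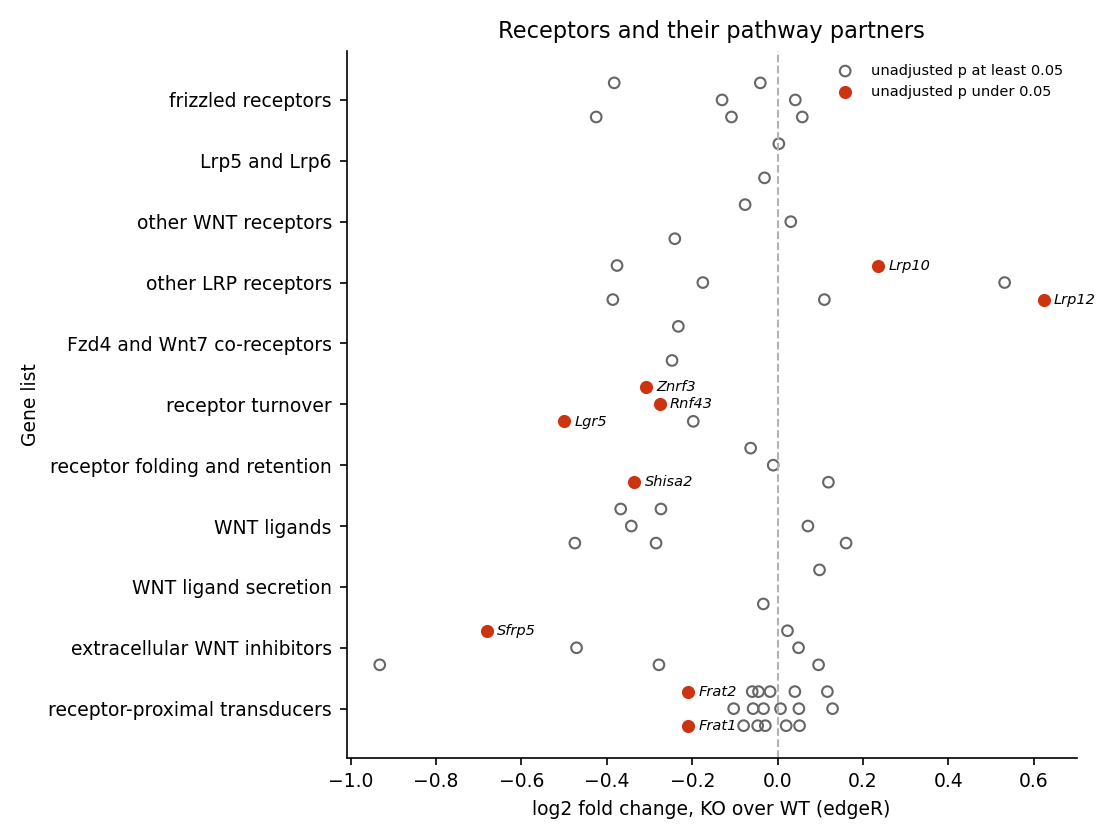
Log2 fold change of KO over WT for each tested gene of the receptors and their pathway lists, except Fzd3. Filled points and names mark genes with an edgeR unadjusted p under 0.05. Fzd3 (log2 fold change -0.47, edgeR unadjusted p = 0.383) is not drawn. No receptor is filled, and the named genes are Lrp10 and Lrp12 above 0 and Znrf3, Rnf43, Lgr5, Shisa2, Sfrp5, Frat1 and Frat2 below 0.

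Among genes that fold or retain the receptors, 1 of 4 tested passed the unadjusted threshold. Shisa2, whose family holds frizzled receptors in the endoplasmic reticulum, averaged 15.4 ± 3.01 FPKM in WT and 12.3 ± 1.07 in KO (SD, n = 4 each; log2 fold change -0.34, edgeR unadjusted p = 0.0348). Mesd, the chaperone of LRP5 and LRP6, had a log2 fold change of -0.063 at a mean of 6.88 FPKM, and Lrpap1 and Tmem59 had -0.010 and 0.12. Of the other WNT receptors, Ryk (14.7 FPKM), Ptk7 (3.66 FPKM) and Ror2 (3.16 FPKM) had log2 fold changes of 0.031, -0.076 and -0.24, with 0 of 3 past the unadjusted threshold. Tspan12, which assists FZD4 with norrin, averaged 12.1 FPKM with a log2 fold change of -0.25, while norrin itself (Ndp) had no counts in any mouse. Adgra2 and Reck, which assist WNT7 signals, averaged 0.131 and 0.0207 FPKM, and only Adgra2 was tested (log2 fold change -0.23, edgeR unadjusted p = 0.547).

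Relatives of LRP5 and LRP6 had 2 of 7 tested genes higher at the unadjusted threshold and 0 lower, with 4 log2 fold changes above 0 and 3 below. Lrp10 had 126 to 142 CPM in WT and 144 to 179 CPM in KO mice, without overlap (log2 fold change 0.23, edgeR unadjusted p = 0.0239), and Lrp12 had a log2 fold change of 0.62 (edgeR unadjusted p = 0.0345). Lrp1, a large endocytic receptor, averaged 16.6 FPKM with a log2 fold change of 0.11. Lrp4, a receptor of the neuromuscular junction that also binds WNT inhibitors, averaged 9.43 FPKM with -0.18 (edgeR unadjusted p = 0.116). The other tested relatives ranged from -0.39 to 0.53, none with an edgeR unadjusted p under 0.05. Enterocyte markers summed to 1069 to 2978 CPM in WT and 1580 to 7022 CPM in KO mice (exact permutation p = 0.229). They had 8 of 8 log2 fold changes above 0, 2 of them with an edgeR unadjusted p under 0.05. The immune markers given at the start had 10 of 11 above 0. Of all tested genes, 46.1% were above 0 and 5.33% were higher at that threshold. The part of either list in these values was not tested.

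Of the 19 WNT ligands, 7 were tested and none passed the unadjusted threshold in edgeR. Wnt3, the main WNT of Paneth cells, was the only one above 1 FPKM on average, at 5.93 ± 2.12 FPKM in WT and 4.71 ± 2.08 in KO (SD, n = 4 each; log2 fold change -0.34, edgeR adjusted p = 0.834). Wnt6 and Wnt2b averaged 0.504 and 0.428 FPKM. The genes for ligand secretion, Wls (7.22 FPKM) and Porcn (1.27 FPKM), had log2 fold changes of -0.034 and 0.098. Fzd9 and Wnt3 had a Pearson's r of 0.874 and a Spearman's rho of 0.905 over the 8 mice, genotype means subtracted. On those values KO replicate 4 and WT replicate 1 were farthest from the median of Wnt3, and r was 0.783 without them. This pair was also chosen after the values were seen and is a description.

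Among the 17 secreted or membrane inhibitors of WNT, 7 were tested and 1 was lower at the unadjusted threshold. Sfrp5, a decoy that resembles the ligand-binding domain of frizzled receptors, measured 17.1, 41.5, 20.4 and 40.1 CPM in WT and 24.5, 16.8, 15.99 and 17.1 CPM in KO replicates 1 to 4. WT replicates 2 and 4 stood above the other 6 mice, which overlapped between genotypes (log2 fold change -0.68, SE 0.30, edgeR unadjusted p = 0.0453). Igfbp4, which binds frizzled and LRP6, averaged 13.2 FPKM with a log2 fold change of -0.28, and Kremen1 3.80 FPKM with 0.049. All 18 transducers next to the receptors were tested, and 2 were lower at the unadjusted threshold. Frat2 and Frat1, which bind GSK3, had log2 fold changes of -0.21 each (edgeR unadjusted p = 0.0166 and 0.0399), and the KO mice lay below the WT mice for Frat2. Ctnnb1 (β-catenin, 126 FPKM) and Axin2 (40.5 FPKM) had log2 fold changes of 0.12 and -0.080.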

How the data were processed

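Total RNA of crypts from 4 KO and 4 WT mice was sequenced, and the samples were grouped by their genotype labels. The counts deposited by the authors are raw reads on each gene, made with HISAT2 2.0.5 and featureCounts 1.5.0-p3 according to the submitters' processing notes. The strand setting and genome build are not given in the sources used here, and the gene positions match GENCODE M21 on GRCm38 for all 10 receptors. The authors also deposited FPKM, which equal counts divided by the deposited gene length and by 0.961 to 1.05 times the counted total. Deposited fold changes and p-values of the authors' comparison were not used.

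The 10 receptors and all gene lists were chosen with earlier results of these data known. Counts were compared with edgeR 4.0.16 (R 4.3.3) after filterByExpr (minimum count 10, leaving 16109 genes) and TMM normalization, by the quasi-likelihood test with genotype as the only term and Benjamini-Hochberg adjustment over these genes. The step was tested on simulated counts. Exact permutation and sign-flip tests over mice were two-sided. Alternatives were DESeq2 1.42.0, limma 3.58.1 on log2 FPKM, other scaling factors and filters, a covariate for Xist or Ddx3y, a replicate block and leaving out each mouse. Figures were drawn with matplotlib 3.10.9 in Python 3.11.15.

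With the mean of each genotype subtracted, mice that share a number correlated at 0.129, 0.501, 0.141 and 0.294 over all tested genes, so the replicate numbers were treated as pairing the mice. Over autosomal genes the values were 0.0873, 0.481, 0.0921 and 0.252, with 2 of the 4 under the minimum of 0.1, and the number is shared with the Xist or Ddx3y group. No label says what a number marks. Besides the 10 receptors, the rule for named genes took those with an unadjusted p under 0.05 in a pathway list, the 3 with the highest FPKM of each pathway list and the 3 most alike to each receptor. Marker genes, Gm38058, Mesd, Ndp, Lgr6, the R-spondins and the relations of Fzd9 were named after their values were seen. Some genes of the lists are not reported here and were left out of their counts.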

Additional observations from a re-analysis of the deposited data

Results flagged for a closer look

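In the 4 KO mice, Fzd6 was 0.713 CPM in replicate 1, apart from the others at 0.232 to 0.303 CPM by Dixon's criterion (ratio 0.854). This is 17 counts against 6 to 8, and 1 such value among the 20 groups examined is the number that chance gives.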

How the results depend on the processing

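No receptor had an adjusted p under 0.05 in any of the 153 refits of single receptors (17 settings for each of 9 receptors), and 11 of them turned the sign of a fold change near 0. Lrp5 turned to -0.013 with upper-quartile factors and ranged from -0.053 to 0.077 when a mouse was left out (-0.053 with WT replicate 1 out, -0.028 with WT replicate 2 out, -0.051 with KO replicate 3 out and -0.018 with KO replicate 4 out). Fzd4 ranged from -0.042 to 0.16 when a mouse was left out and was below 0 with WT replicate 1, KO replicate 3 or KO replicate 4 out, Fzd7 from -0.10 to 0.046, above 0 with WT replicate 3 or KO replicate 2 out, and Lrp6 from -0.099 to 0.11, above 0 with WT replicate 1 out. The count of receptors with an unadjusted p under 0.05 was 1 with DESeq2, with upper-quartile factors and with the replicate block, each time Fzd2, and lay between 0 and 2 when a mouse was left out (1 without WT replicate 1, Fzd2, and 2 without KO replicate 4, Fzd2 and Fzd9). The cause was not tested. The replicate block left 0 receptors past the adjusted threshold and gave 11 pathway genes past the unadjusted one. That pathway count lay between 4 and 8 when a mouse was left out and between 6 and 11 in the other settings. By exact permutation of CPM, 0 receptors passed, and 0 to 1 when a mouse was left out (Fzd2 without WT replicate 1 and Fzd1 without KO replicate 4). Each of these had an exact permutation p of 0.0286, the smallest that 3 against 4 mice allow, with the only overlapping mouse left out. Pairing the mice by number gave 0 by sign flips, which cannot go below 0.125 with 4 pairs. Of the 9 neighbours in the order of levels, ranked again with each mouse left out, 7 differed each time. In CPM, which is not per length, the order and so the neighbours changed, with Fzd9 falling below Fzd4, and 4 of those 9 pairs differed, Lrp5 over Lrp6 no longer among them (exact sign-flip p = 0.0781, adjusted p = 0.141). Depth limits Fzd6, with 6 to 17 counts, and the spread between mice limits Fzd9.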
